A study of Mus musculus with 16 samples.

Results

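Nascent transcription of 6 imprinted genes was followed on each parental copy: Zdbf2 on chromosome 1, and Dlk1, Meg3, Rtl1, Rian and Mirg in the Dlk1-Dio3 domain of chromosome 12. They were chosen by name from the 24978 gene symbols of the deposited table, using the widest row of each symbol, and 4 of them (Zdbf2, Meg3, Rian and Mirg) reached the level needed for testing, a mean of at least 0.2 reads per 1000000 reads of a copy (CPM) over all libraries, as did 14094 genes in all. The cells were F121-9 mouse embryonic stem cells, a hybrid line in which 1 copy of each chromosome is of castaneus (cast) and the other of 129 origin, and edited lines of the same hybrid, grown on gelatin in medium with 2i and LIF, which holds stem cells in a naive state. RNA made during 30 min in 2 mM bromouridine was captured and sequenced (Bru-seq), and reads over SNPs were assigned to the 129 or the cast copy. The 16 libraries formed 12 groups. There were 2 libraries of F121-9 (F121-9R1 and F121-9R2). The lines abc.del.A6 and abc.del.E2 are treated as replicates 1 and 2 of a group called abc.del, ab.del.D10 and ab.del.D12 as ab.del, and c.del.B11 and c.del.A12 as c.del. The lines a.del.53, b.del.D10, ac.del.E4, bc.del.B3, 4k.b.c.G12, 100kdel.C3, 245kdel.F9 and 680kinv.B10 had 1 library each and are named below without the last code, whose meaning the labels do not give. The labels do not spell these names out, although del reads as a deletion and inv as an inversion, and give neither the position of an edit nor the copy that carries it. Whether the replicates were grown or edited apart is not stated, and p-values therefore cover only the spread between libraries. The labels also do not say which parent gave the 129 and which the cast copy, so copies are called by strain and not by parent.

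Imprinted genes are read mainly from the copy inherited from 1 parent, under the control of a region whose DNA carries methylation on only 1 parental copy. In the Dlk1-Dio3 domain, the coding genes Dlk1, Rtl1 and Dio3 are known to be read from the paternal copy, whereas a long noncoding unit that starts at Meg3 and runs through Rian and Mirg, with many microRNAs (miRNAs) and small nucleolar RNAs inside it, is read from the maternal copy. In mouse pluripotent lines this noncoding unit is known to be silent in some clones and active in others. Zdbf2, a gene for a zinc finger protein, is read from the paternal copy, and in early embryos and stem cells from a distant upstream start that lies inside the neighbouring gene Gpr1.

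The starts of the noncoding unit and of the long Zdbf2 transcript are shown because the results turn on reads downstream of them. The windows are the 250 bases before each first start, from RefSeq on GRCm38.p6, plus strand, at 12:109540746-109540995 for Meg3 and 1:63200108-63200357 for Zdbf2. CG pairs, where mammalian DNA is methylated, are in capitals.
Meg3: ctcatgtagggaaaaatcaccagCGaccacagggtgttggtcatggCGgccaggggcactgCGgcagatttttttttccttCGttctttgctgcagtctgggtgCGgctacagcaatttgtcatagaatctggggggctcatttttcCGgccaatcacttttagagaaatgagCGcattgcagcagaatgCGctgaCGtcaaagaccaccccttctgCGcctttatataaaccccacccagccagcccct
Zdbf2: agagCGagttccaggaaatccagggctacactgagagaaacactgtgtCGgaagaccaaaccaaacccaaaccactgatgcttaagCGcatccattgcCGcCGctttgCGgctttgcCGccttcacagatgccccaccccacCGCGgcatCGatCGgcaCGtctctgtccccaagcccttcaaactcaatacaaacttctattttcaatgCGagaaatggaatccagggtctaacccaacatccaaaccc
The Meg3 window held 10 CG pairs and the Zdbf2 window 13, against a median of 6 over 32851 promoter windows of that length, and 37.8% and 31.5% of the windows held at least as many. The letters TGCCGC, the hexamer that the imprint-keeping protein ZFP57 is known to bind when methylated, were searched on both strands. They occurred 1 time in the Meg3 window and 3 times in the Zdbf2 window. The windows before the second starts of these genes and before Dlk1, Rian and Mirg held 0 matches. Of all windows, 8.68% held a match. Such a match is a description of the letters, and methylation was not measured.

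Inside the noncoding unit, 5 mature miRNAs are shown because their rows in the table are sites at which the 2 copies of the unit could be read. They were picked after their reads were seen. The seed, bases 2 to 8, with which a miRNA pairs to its targets, is in capitals.
miR-540-3p: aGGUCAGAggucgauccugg
miR-370-3p: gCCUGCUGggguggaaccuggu
miR-376b-5p: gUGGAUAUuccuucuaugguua
miR-376c-5p: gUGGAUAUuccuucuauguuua
miR-453: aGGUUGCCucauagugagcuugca
The miR-376b-5p and miR-376c-5p sequences share their seed, and the seed of miR-453 is also that of miR-496a-5p of the same unit. The reads counted over these rows are of labelled RNA that crosses the hairpin, and give no level of the mature miRNA.

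Reads over genes ranged from 8.96 M to 32.0 M per library (M, units of 1000000), with a median of 16.4 M. In 14 libraries 129 gave 52.6% to 53.6% of the reads of 668 genes on chromosome 1 and 51.8% to 52.9% of the reads of 421 genes on chromosome 12. In a.del and 4k.b.c the cast copy of chromosome 1 gave only 0.239% and 0.263% of the reads, and the 129 copy of chromosome 12 only 0.426% and 0.433%. These 2 libraries therefore stood apart on both chromosomes and are set against the other 14 throughout. All 8 stem cell markers exceeded 1 CPM at the median, with summed levels of 1570 to 2213 CPM in the 14 libraries, 1921 CPM in a.del and 1816 CPM in 4k.b.c. None of 8 fibroblast markers did, and their summed level was 0 to 2.03 CPM. None of 6 primitive endoderm markers did either (0.864 to 3.06 CPM, 3.68 CPM in a.del). Of 6 trophoblast markers Tfap2c alone did, a gene that stem cells also express, and it made up most of a summed level of 7.78 to 30.1 CPM (33.0 CPM in a.del).

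Dlk1, a membrane protein of the Notch ligand family, was at or near 0. At 12:109452823-109463336, 10 reads were counted over the 14 libraries, 6 of them from 129 in 680kinv and the rest in F121-9 replicate 2 and c.del replicate 2. The other libraries, a.del and 4k.b.c included, had 0 reads, which allows up to 3 reads, or 0.0833 to 0.296 CPM from 129 and 0.0905 to 0.329 CPM from cast depending on the library. Rtl1, a protein of retrotransposon origin, lies on the minus strand at 12:109589193-109600330 and had 6 reads, all from 129 in bc.del (0.504 CPM). In these 14 libraries 9 Dlk1 reads and all 6 Rtl1 reads came from 129, each mostly from 1 library, which is too few to rank the copies.

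Meg3, by contrast, was read from both copies in all 14 libraries, and the cast copy was the higher in each. The gene lies at 12:109540996-109571729 on the plus strand. In F121-9 its 129 copy gave 29.6 and 20.2 CPM and its cast copy 130 and 98.1 CPM. In the abc.del libraries 129 gave 49.2 and 83.6 CPM and cast 160 and 226 CPM. In the ab.del libraries 129 gave 39.6 and 108 CPM and cast 115 and 364 CPM, and in the c.del libraries 129 gave 30.6 and 49.6 CPM and cast 122.3 and 195 CPM. The highest 129 value in these 8 libraries was thus above the lowest cast value, but within each library cast exceeded 129. Of the groups with 1 library, 100kdel was the lowest on both copies, with 8.71 CPM from 129 and 77.1 CPM from cast, and b.del the highest, with 128 and 566 CPM. 245kdel gave 15.9 and 94.8 CPM, 680kinv 34.4 and 115 CPM, bc.del 46.3 and 170 CPM, and ac.del 76.5 and 369 CPM. From the lowest to the highest library the mean of both copies thus spanned a factor of 8.09.

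Rian, the noncoding host of a cluster of small nucleolar RNAs, showed the same order of the copies. At 12:109603945-109661711 its 129 copy gave 25.01 CPM at the lowest, 95.4 CPM at the median and 163 CPM at the highest of the 14 libraries, and its cast copy 186, 354 and 623 CPM. The lowest was 100kdel on both copies. The highest was abc.del replicate 2 on 129 and ab.del replicate 2 on cast, and the 2 ranges did not overlap. Mirg, the noncoding host of the downstream miRNA cluster at 12:109734981-109749457, gave 5.08, 20.1 and 30.1 CPM from 129 and 36.2, 65.9 and 121 CPM from cast. Here too 100kdel was the lowest on both copies and the ranges did not overlap, since the highest 129 value lay below the lowest cast value. How many of all genes have ranges that lie apart in this way was not counted.

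**Figure D1:**
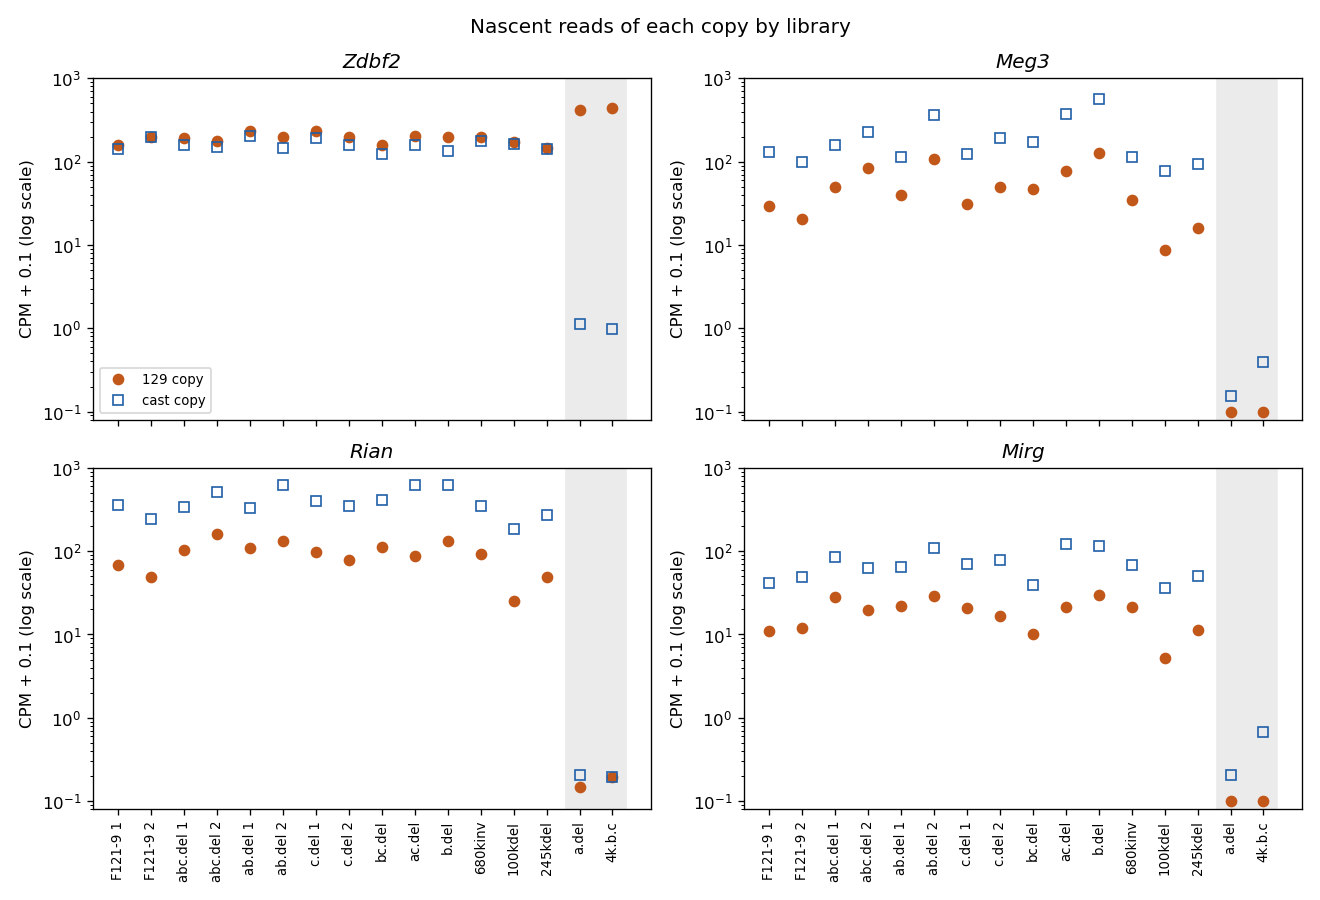
Nascent reads of Zdbf2, Meg3, Rian and Mirg in each library, as CPM + 0.1 on a log axis; filled circles are the 129 copy, open squares the cast copy, and the grey band holds a.del and 4k.b.c. Cast lies above 129 in 14 of 14 libraries for Meg3, Rian and Mirg, and inside the grey band both copies of these 3 genes lie at the bottom of the axis while the 129 copy of Zdbf2 lies at 419 and 443 CPM.

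As a share of the reads of both copies, 129 gave 21.3% of Meg3 reads at the median of the 14 libraries (lowest 11.1%, highest 28.2%), 19.3% of Rian reads (12.99% to 25.9%) and 22.2% of Mirg reads (13.49% to 26.7%). Shares in single libraries were precise against this spread. In 100kdel, the lowest for each of the 3 genes, the Meg3 share had a 95% Wilson interval from 9.56% to 12.9%, and in abc.del replicate 2, the highest for Meg3, from 27.0% to 29.4%. Such intervals cover counting error only. The 129 minus cast difference, tested in limma over the 14 libraries on log2(CPM + 0.1), was -2.04 (SE 0.11, adjusted p = 1.04e-10) for Meg3, -2.16 (SE 0.10, adjusted p = 1.44e-11) for Rian and -1.98 (SE 0.09, adjusted p = 1.64e-11) for Mirg. All 3 passed the call, an adjusted p under 0.05 with a difference of at least 1, with cast higher in 14 of 14 libraries. Over all genes tested, 14.2% were called in either direction, 6.0% with cast higher and 8.17% with 129 higher. Genes as far to the cast side as these 3 made up 1.67%, 1.33% and 1.85% of all genes. In this hybrid, parent and strain of a copy cannot be told apart, nor, in bulk RNA, fewer cells that read the minor copy and less RNA of it per cell. The 8 libraries of the first run of sample numbers had Meg3 shares of 18.7% to 28.2% and the 6 of the second run 11.1% to 23.8%, so cast was the higher copy within both runs.

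**Figure D2:**
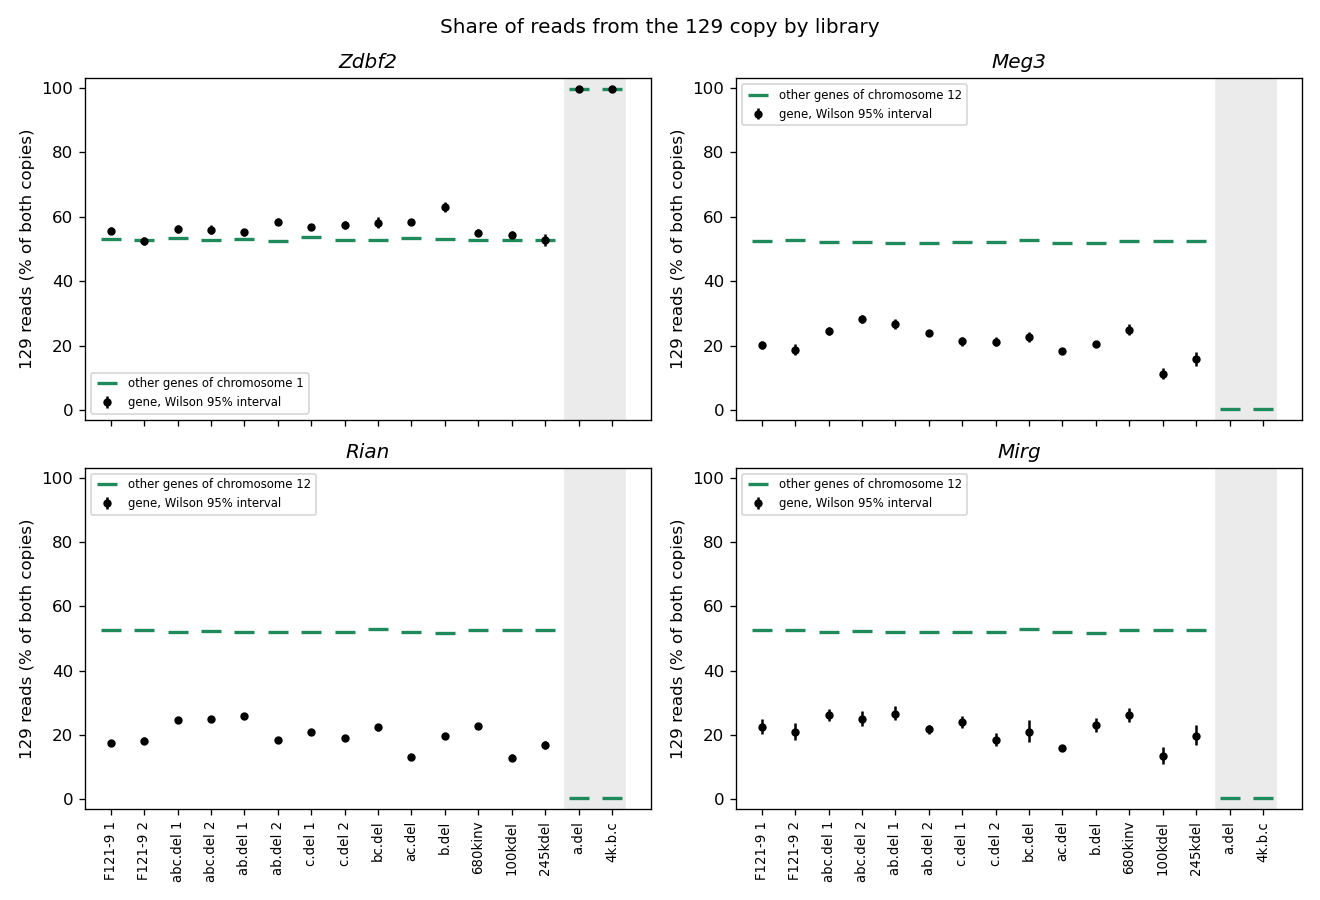
Share of reads from the 129 copy of each gene in each library, in percent, with 95% Wilson intervals, and the share over the other genes of the same chromosome as green bars; the grey band holds a.del and 4k.b.c. Meg3, Rian and Mirg stay between 11.1% and 28.2% in the 14 libraries while their chromosome stays between 51.8% and 52.9%, and Zdbf2 lies between 52.6% and 63.1%.

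Pooled over libraries, similar shares were found along the whole unit, in segments of Meg3 and in Rian and Mirg. In the first 4.40 kb of Meg3, 129 gave 19.7% of the reads pooled over 14 libraries, in the next 23.3 kb 22.0% and in the last 3.08 kb 20.9%, next to 19.5% for Rian and 21.6% for Mirg. By library the shares spread more, most of all in the first part of Meg3, at 5.26% to 29.55% with a median of 17.3%. The middle part had 11.3% to 29.05% (median 21.4%) and the last 12.3% to 32.0% (median 20.6%). On the cast copy the median density was 2.14 CPM per kb in the first part of Meg3, 5.09 in the middle and 5.37 in the last, 6.12 in Rian and 4.55 in Mirg. On the 129 copy these densities were 0.354, 1.54, 1.33, 1.65 and 1.39 CPM per kb. Since only reads over SNPs were counted, such densities also depend on how many SNPs a segment holds.

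Most small rows between Meg3 and Mirg were also higher on cast. Of 58 miRNA rows on the plus strand 31 had reads, 6445 in all over the 14 libraries, and of the 20 with at least 100 reads 19 had more from cast. The exception was Mir666, with 98 reads from 129 and 92 from cast. The median share of 129 over these 20 rows was 20.6%. Among rows with fewer reads, Mir667 (38 from 129 and 28 from cast) and the small row DQ267102 (12 and 0) were also higher on 129. For the miRNAs printed above, the precursor rows had 154 reads from 129 and 406 from cast at Mir540, 111 and 260 at Mir370, 57 and 220 at Mir376c, 71 and 481 at Mir453 and, under the minimum of 100 reads, 1 and 21 at Mir376b. The 5 other small rows with at least 100 reads, mostly small nucleolar RNAs of Rian, had 12.4% to 20.7% of reads from 129. The 3 miRNA rows on the minus strand had 0 reads in all libraries. Opposite Rtl1, where the minus strand was almost empty, Mir434 had 31 reads from 129 and 78 from cast, and the other miRNA rows there had 0. As only reads over SNPs were counted, 0 reads in so short a row can also reflect a lack of SNPs near it. Nearby rows can share a read, and those inside Meg3, Rian or Mirg count reads of the host row again.

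**Figure D3:**
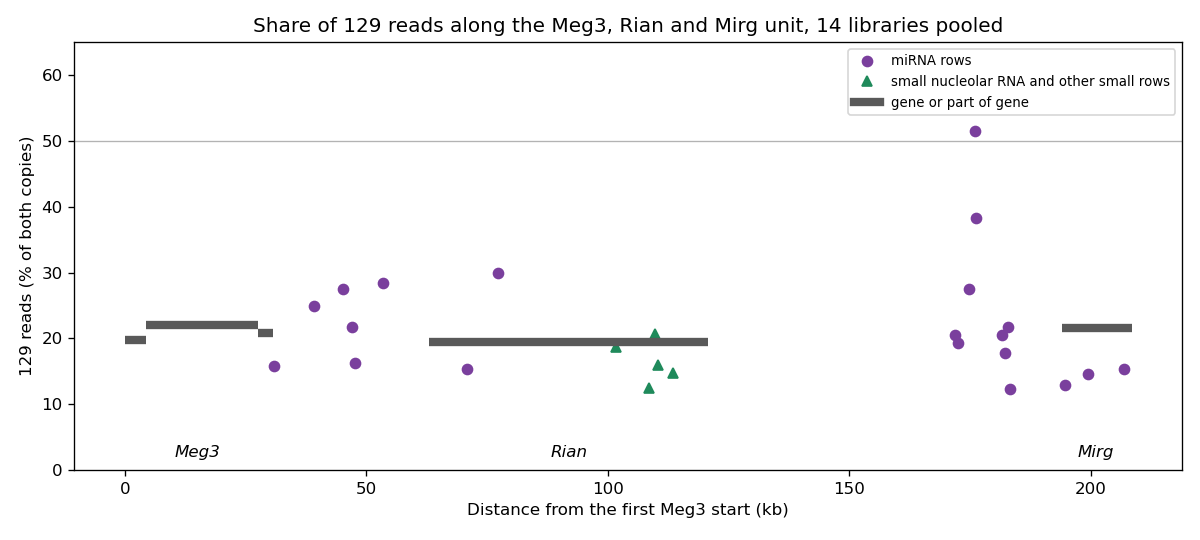
Share of 129 reads along the unit, pooled over 14 libraries, against the distance in kb from the first Meg3 start; grey bars are Meg3 in 3 parts, Rian and Mirg, and points are small rows with at least 100 reads. All segments lie between 19.5% and 22.0%, and among the points only Mir666 exceeds 50%.

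The level of the unit varied more between libraries than that of most genes, and the levels of its members correlated. The SD of log2 expression over the 14 libraries was 0.87 for Meg3, larger than that of 91.6% of 11191 genes with a mean of at least 1 CPM. It was 0.54 for Rian and 0.58 for Mirg, larger than that of only 67.8% and 72.8% of these genes, against a median of 0.41. As a description over the 14 libraries, which share their cell line and in part their groups, the levels of Meg3 and Rian correlated at r = 0.911 (rho 0.842), of Meg3 and Mirg at r = 0.797 (rho 0.684) and of Rian and Mirg at r = 0.757 (rho 0.679). The 129 and cast levels of Meg3 correlated at r = 0.921 (rho 0.938), so libraries high on the major copy were also high on the minor one. Rian exceeded Meg3 by a median factor of 2.56 in the first run of sample numbers (2.10 to 3.24) and 1.68 in the second. Of the second run, 100kdel (2.46) and 245kdel (2.88) lay within the range of the first. The others lay lower, from 1.08 in b.del to 1.75 in c.del replicate 2. These factors are not scaled to the width of the rows. Genes whose levels were most like those of Meg3 over the 14 libraries were Fzd5 (r = 0.947), Stat3 (0.939) and Akap9 (0.936). For Rian they were Adamtsl1 (0.977), Meg3 (0.911) and Zfp808 (0.904), and for Mirg Fzd7 (0.948), Grik3 (0.924) and 2010111I01Rik (0.915). Those named for Meg3 and for Mirg all lie on other chromosomes, and no member is among them. The share of all genes that correlate as well as the members do was not determined, so the correlation is not shown to be particular to the unit.

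Zdbf2 was read at nearly equal levels from both copies. The long row at 1:63200358-63314575 gave 145 CPM from 129 at the lowest, 196 CPM at the median and 235 CPM at the highest of the 14 libraries, and 122.2, 159 and 202 CPM from cast. The ranges of the copies overlapped from 145 to 202 CPM. The 129 share was 56.1% at the median, lowest in F121-9 replicate 2 at 52.6% and highest in b.del at 63.1%. In the limma test of the copies the difference was 0.25 (SE 0.04, adjusted p = 6.25e-05), with 129 higher in 13 of 14 libraries, which is below the size set for a call. Of all genes, 27.5% were at least as far to the 129 side. Its SD of log2 expression was 0.19, and 10.0% of genes had a smaller one. The levels of Zdbf2 and Meg3 correlated at r = -0.089 (rho -0.174). The genes most like Zdbf2 were Paox (r = 0.899), Traf3ip2 (0.873) and Cacng7 (0.870).

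Within Zdbf2 the 129 share was higher upstream of the second start, a part of which Gpr1 also covers, on the opposite strand. From the distant start at 63200358 to 63273268, 72.9 kb, the median density was 2.08 CPM per kb on 129 and 1.54 on cast, and 129 gave 57.9% of the pooled reads. From the second start at 63273269 to the end, 41.3 kb, it was 1.05 on 129 and 1.06 on cast, and 129 gave 52.2%. The upstream part was thus the denser one on both copies, by a median factor of 1.95 on 129 (1.41 to 2.42 over the 14 libraries) and 1.497 on cast (1.21 to 2.11). No test of this difference between parts was made. The start shown above was therefore followed by nascent reads on both copies, and reads past the second start can come from either start.

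In a.del and 4k.b.c almost no reads of the noncoding unit were found on either copy. Meg3 had 0 reads from 129 and 1 from cast in a.del, and 0 and 3 in 4k.b.c. Rian had 1 and 2 reads in a.del and 1 and 1 in 4k.b.c, and Mirg 0 and 2 in a.del and 0 and 6 in 4k.b.c. The other 14 libraries had 864 to 12235 cast reads of Meg3, so neither of the 2 overlapped them. Compared with the pooled F121-9 libraries, the cast copy of Meg3 was 2198 times lower in a.del (exact 95% counting interval 394 to 86844) and 405 times lower in 4k.b.c (139 to 1966). For Rian the ratios were 2916 (807 to 24082) and 3226 (579 to 127413), and for Mirg 417 (115 to 3448) and 76.9 (35.3 to 210). The 31 miRNA rows that had reads in the 14 libraries had 0 in both, and the other small rows 2 in all. With 1 library a group these ratios have no replicate check.

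The copy left in these 2 libraries otherwise gave more reads than in the 14. Over 407 genes the cast copy of chromosome 12 stood at a median of 2.08 times its value in the 14 libraries in a.del and 1.92 times in 4k.b.c, and the 129 copy of chromosome 1 at 2.08 and 2.05 times over 637 genes. The cast copies of chromosomes 2, 4 and 5 stood at 0.988 to 1.13 times. Yy1, a chromosome 12 transcription factor gene near the domain, gave 207 and 202 CPM from cast in a.del and 4k.b.c against a median of 87.9 CPM in the 14. Zdbf2 went the same way as its chromosome: its 129 copy gave 419 CPM in a.del and 443 CPM in 4k.b.c, against a median of 196 CPM in the 14. These values were 2.41 times (2.33 to 2.48) and 2.55 times (2.46 to 2.65) the pooled F121-9 value, a different reference from that of the chromosome ratios. The cast copy of Zdbf2 gave 1.02 and 0.872 CPM. The mean of both Zdbf2 copies was 210 CPM in a.del, within the range of the 14 libraries (140 to 218 CPM), and 222 CPM in 4k.b.c, just above it.

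On the mean of both copies, a gene was called in a single library when it lay outside the range of the other 14 and at least 2-fold from their median, which is a description and not a test. In a.del 3.21% of all genes were called lower and 4.87% higher, and in 4k.b.c 2.58% and 6.49%. On chromosome 12, 8.21% and 8.02% were called lower, shares that include the members and the other rows of their unit, 26 rows tested in all. On the autosomes other than 1 and 12 the shares called lower were 2.77% and 2.11%. The median log2 difference over all genes was 0.11 in both libraries, and over 524 genes of chromosome 12 it was 0.02 and -0.06. Against these, Meg3 stood at -9.50 and -8.54, Rian at -10.27 and -10.14, Mirg at -8.16 and -6.81 and Zdbf2 at 0.27 and 0.36. Of all genes 0.710% were called lower in both libraries. On chromosome 12 these were 31 genes: the 3 members, 15 other rows inside their unit and 13 genes elsewhere. Rian, Meg3 and Mirg had the 3 largest differences of the 31, followed by Gm10451. Smoc1, a gene listed as imprinted that lies elsewhere on chromosome 12, was the seventh at -4.31 and -2.90. The added 0.1 limits how far a gene can fall from its level, so this order depends in part on level. Gm10451, at a median of 3.43 CPM in the 14 libraries, had 0 reads in 4k.b.c and could fall no further than -5.14. Median levels were 43.9 CPM for Mirg and 84.4 CPM for Smoc1. Both libraries lie in the second run of sample numbers, in which the other 6 libraries gave Meg3 at 42.9 to 347 CPM. In the same 2 libraries chromosome X had 1.10% and 1.03% of its reads from 129, as low as in some of the other 14, and chromosome 8 had 35.1% and 35.7%. The part of these features in the values of the unit was not tested.

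**Figure D4:**
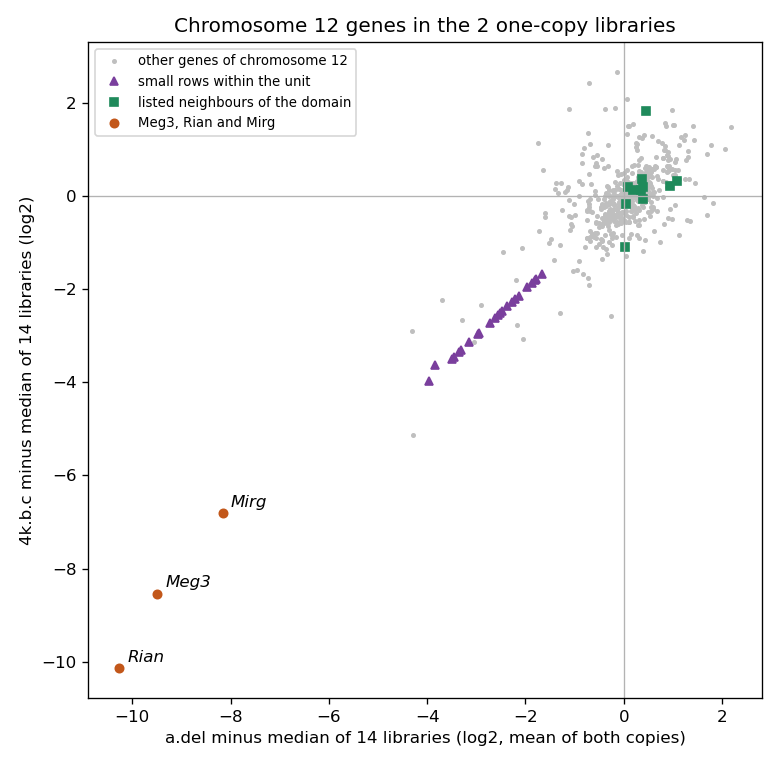
Each point is a chromosome 12 gene; the axes give the log2 difference of a.del and of 4k.b.c from the median of the other 14 libraries on the mean of both copies, log2(CPM + 0.1). Rian, Meg3 and Mirg lie far below the cloud of 524 genes, whose medians are 0.02 and -0.06, and small rows with 0 reads in both libraries fall on the diagonal because the added 0.1 sets their value.

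The groups with 2 libraries allow abc.del, ab.del and c.del each to be set against F121-9. Of the 4 members tested, 0 passed an adjusted p of 0.05 in limma in any of these comparisons, which share the F121-9 libraries, and of all genes 0.220%, 0.0497% and 0.0497% passed. The groups also differed in chromosome X, where 129 gave 49.7% and 52.6% of the reads in F121-9, 1.03% and 1.04% in abc.del, 1.04% in both ab.del libraries, and 99.8% and 13.1% in c.del. On autosomal genes alone 6, 0 and 0 genes passed in place of 31, 7 and 7, and the part of chromosome X in the values of the members was not tested. The mean of both Meg3 copies was 69.5 ± 14.6 CPM (SD, n = 2) in F121-9, 130 ± 35.6 in abc.del, 157 ± 112 in ab.del and 99.4 ± 32.4 in c.del (n = 2 each). The log2 differences from F121-9 were 0.89 (SE 0.47, adjusted p = 0.56), 0.97 (SE 0.47, adjusted p = 0.656) and 0.49 (SE 0.47, adjusted p = 0.748) in limma. The ab.del libraries, 77.3 and 236 CPM, fell on both sides of F121-9 replicate 1 at 79.9 CPM. Rian was at 179 ± 46.9 CPM in F121-9, 280 ± 84.9 in abc.del, 299 ± 112 in ab.del and 231 ± 23.3 in c.del (SD, n = 2 each), with log2 differences of 0.63, 0.71 and 0.39 (SE 0.31, adjusted p = 0.537, 0.636 and 0.7 in limma). Each of the 6 libraries of these edited groups lay above both F121-9 libraries, 146 and 212 CPM, the nearest at 214 CPM, whereas 100kdel (105.5 CPM) lay below them and 245kdel (159 CPM) between them. Mirg was at 28.5 ± 2.93 CPM in F121-9, 48.9 ± 10.99 in abc.del, 56.0 ± 17.9 in ab.del and 46.3 ± 1.63 in c.del (SD, n = 2 each), and again none of the 6 overlapped the F121-9 libraries, 26.4 and 30.5 CPM, whereas 100kdel (20.6 CPM) and bc.del (24.8 CPM) lay below them. Its log2 differences were 0.76, 0.94 and 0.70 (SE 0.27, adjusted p = 0.354, 0.401 and 0.488 in limma). The share of all genes that lie apart from F121-9 as Rian and Mirg do was not determined. Zdbf2 differed by -0.02, 0.17 and 0.18 (SE 0.21, adjusted p = 0.986, 0.834 and 0.791 in limma). Single libraries moved these values. Meg3 in ab.del was 1.78 without replicate 1 and 0.17 without replicate 2 of ab.del, and in c.del 0.83 and 0.15 without replicate 1 or 2 of c.del. Rian was 0.95 and 0.32 without replicate 1 or 2 of abc.del, 1.10 and 0.32 without replicate 1 or 2 of ab.del, and in c.del 0.66 and 0.12 without replicate 1 or 2 of F121-9. Without F121-9 replicate 2, Rian was 0.36 in abc.del and 0.44 in ab.del, and Meg3 0.28 in c.del, and without ab.del replicate 2 Mirg was 0.61 in ab.del. The Zdbf2 difference in abc.del became 0.18 without F121-9 replicate 2, and those in ab.del and c.del -0.03 and -0.01 without F121-9 replicate 1. Replicate 2 of ab.del and of c.del lies in the second run of sample numbers, and the other libraries of these 4 groups in the first. Group and run can therefore be told apart only in part. With the run as a covariate, Meg3 was 0.40 in ab.del and -0.08 in c.del, and Rian 0.57 and 0.24. Mirg was then 0.76 and 0.52, and Zdbf2 0.32 and 0.33.

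Without adjustment, Mirg was under 0.05 in all 3 comparisons (limma p of 0.0196, 0.00682 and 0.0283) and Rian in ab.del (0.0485), as were 10.3%, 7.80% and 9.44% of all genes. By edgeR and DESeq2, too, 0 members passed an adjusted p of 0.05. The share of 129 in Meg3 was 19.4 ± 1.00% in F121-9, 26.4 ± 2.57% in abc.del, 25.2 ± 2.03% in ab.del and 21.3 ± 0.0277% in c.del (SD, n = 2 each), and was not tested between groups.

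Of 13 listed neighbours of the chromosome 12 domain 11 were tested between copies, with a median 129 minus cast difference of 0.12 against 0 over all genes. Dio3, the deiodinase gene that closes the domain, was the only one called (beside 14.2% of all genes), at -1.34 (SE 0.38, adjusted p = 0.00731 in limma), with 21.3% of its few reads from 129 and a median level of 0.188 CPM. In a.del and 4k.b.c Dio3 gave 0.589 and 1.84 CPM from cast, and in 4k.b.c it was called higher (1.83) and Ppp2r5c, a phosphatase subunit gene, lower (-1.09). None of the 11 was called in a.del. Begain, next to Dlk1, gave 63.5% of its 444 reads from 129.

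On chromosome 1, 10 of 12 listed neighbours of Zdbf2 were tested, and 3 were called between copies, 2 higher on 129 and 1 on cast, beside 8.17% and 6.0% of all genes. Gpr1, the receptor gene whose body spans the distant Zdbf2 start, was higher on 129 (1.55, SE 0.14, adjusted p = 8.63e-08 in limma), with 75.4% of reads from 129 and a median level of 3.30 CPM. Adam23, a membrane protein gene downstream, was also higher on 129 (1.45, SE 0.06, adjusted p = 3.29e-12), whereas Nrp2, a semaphorin receptor gene upstream, was higher on cast (-2.52, SE 0.11, adjusted p = 8.65e-12). In a.del and 4k.b.c Gpr1 gave 12 and 10.5 CPM from 129 and 0 reads from cast. Adam23 was called higher in a.del (1.03). In 4k.b.c Nrp2 was called lower (-2.75), with 9.74 CPM on 129 against a median of 9.35 CPM in the 14. Nrp2 gave 48.8 CPM from 129 in a.del, where it was not called. Eef1b2 (1.11) and Klf7 (1.10) were called higher in 4k.b.c.

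Among 36 imprinted genes listed from elsewhere, 25 were tested, and 4 were called between copies, beside 14.2% of all genes. Plagl1, a zinc finger gene, was higher on 129 (2.06, SE 0.11, adjusted p = 8.09e-11 in limma), as were Sfmbt2 (1.59, SE 0.18, adjusted p = 1.59e-06) and Smoc1 (1.37, SE 0.19, adjusted p = 1.19e-05), and Usp29 was higher on cast (-1.18, SE 0.26, adjusted p = 0.00109). Of the 20 outside chromosome 12 with a median of at least 1 CPM, 15 had a 129 share from 40% to 60%, with a median of 48.1%. Kcnq1ot1, a noncoding RNA read from the paternal copy in most tissues, had 52.7% of its reads from 129, and Snrpn, a splicing factor gene also known as paternal, 57.4%. In a.del and 4k.b.c, Mest was called higher in both (2.04 and 1.28), Peg10 (1.09) and Gab1 (1.02) in a.del, and Mkrn3 (1.22) and Kcnq1ot1 (1.53) in 4k.b.c. Chromosome 7, which holds Mkrn3 and Kcnq1ot1, had 36.7% of its reads from 129 in 4k.b.c. Chromosome 8, which holds Gab1, had 35.1% in a.del.

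All 18 listed genes for proteins that keep imprints or act on their methylation were tested. None passed in the 3 group comparisons, where their median differences were 0.13, 0.04 and 0.10 against 0.04, 0.08 and 0.09 over all genes. Between copies Aff3, a gene on chromosome 1, was called higher on 129 (1.35, SE 0.08, adjusted p = 6.04e-10 in limma). Dppa3, whose protein shields methylation in the early embryo, was called lower in 4k.b.c (-3.27) and not in a.del. Zfp57 gave 2.65 to 6.61 CPM in the 8 libraries of the first run of sample numbers and 18.2 to 27.9 CPM in the 8 of the second. These ranges did not overlap, but how many of all genes separate the runs in this way was not counted. Ranges of other listed genes did overlap: Trim28 gave 38.1 to 69.3 CPM in the first run and 60.7 to 120 CPM in the second. Dnmt1 gave 112 to 195 and 106 to 173 CPM, and Dnmt3a 10.1 to 22.8 and 9.68 to 19.5 CPM. Meg3 was read in both runs, at 59.2 to 155 CPM in the first and 42.9 to 347 CPM in the second without a.del and 4k.b.c. The part of Zfp57 in these values was not tested.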

How the data were processed

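The submitters' processing notes name Bowtie2, bedtools and the mm10 build, without versions. Reads with a mapping quality under 10 were dropped and the rest assigned by SNPs to the reference (129) or the variant (cast), per the file headers. The deposited values are CPM, although the table is named for RPKM: each of 32 columns sums to 1000000 over 42497 lines, so each copy was scaled alone. Whole reads were recovered for 100% of values within 0.01 of a whole number. Per symbol the widest line was used, without 6 segments drawn by the authors.

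Log2(CPM + 0.1) was fitted with limma 3.58.1 (R 4.3.3, trended, two-sided, Benjamini-Hochberg over 14094 genes): group comparisons on the mean of both copies over 8 libraries of 4 groups, and 129 minus cast over 14 libraries. Alternatives included edgeR 4.0.16 and DESeq2 1.42.0 on recovered reads. The script was checked on simulated counts drawn with a fixed spread. In the group comparisons 59.7% to 74.6% of simulated log2 changes of 1 were recovered, and 100% of those of 2 or 4, with 15 to 21 false calls. Between copies 61.2% of changes of 1 were recovered, with 2 false calls. Group differences as small as those of the members can therefore be missed. Named genes were the members, list genes that passed a call, and the 3 genes most like each member in Pearson r. Yy1, Begain, Gm10451, Kcnq1ot1, Snrpn, Zfp57, Trim28, Dnmt1, Dnmt3a and the single small rows were chosen after their values were seen. Members and lists were chosen with earlier results of these data known. Sequences are from RefSeq (GRCm38.p6), with promoters for 5 of the 6 genes and 111 mature miRNAs. The 2 runs of sample numbers are those of the deposit, and their meaning is not stated in the labels.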

Additional observations from a re-analysis of the deposited data

How the results depend on the processing

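The cast excess of Meg3, Rian and Mirg passed in 28 of 28 alternatives, at -2.31 to -1.84, -2.47 to -1.92 and -2.26 to -1.77. No member passed in a group comparison under any alternative run, the smallest adjusted p being 0.055 (Meg3, abc.del, only the 2 groups fitted). Numbers of genes called moved much more. For abc.del (31) they were 13 with a pseudocount of 0.01, 15 with a minimum of 1 CPM, 87 with median centring, 18 with every line, 6 with autosomal genes only, 599 with only the 2 groups, 671 with the submission set as covariate, 18 by edgeR, 353 by DESeq2 and 0 to 156 leaving out 1 library. For ab.del (7) they were 37 with a pseudocount of 1 or no filter, 42 with median centring, 30 without trend, 0 with autosomal genes, 21 with the 2 groups, 202 with the covariate, 11 by edgeR, 187 by DESeq2 and 0 to 53 leaving out 1 library. For c.del (7) they were 31 with a pseudocount of 1, 35 with no filter or median centring, 28 without trend, 0 with autosomal genes, 207 with the covariate, 224 by DESeq2 and 0 to 29 leaving out 1 library. Copies differed in 954 genes with a pseudocount of 1, 1328 with a minimum of 1 CPM and 3446 with every line, against 1998. Genes lower in both a.del and 4k.b.c were 199 with median centring and 163 against the second run only, against 100; these settings were added after the data were seen. Leaving out 1 library, Zdbf2 changed sign: it ranged from -0.21 (without F121-9 replicate 1) to 0.18 (without F121-9 replicate 2) in abc.del, with 0.04 without abc.del replicate 2, from -0.03 to 0.36 in ab.del, with -0.01 without ab.del replicate 1, and from -0.01 to 0.38 in c.del, the ends again without F121-9 replicate 1 or 2, and Meg3 in c.del with the covariate (-0.08). On the narrowest line the Zdbf2 share of 129 was 51.4%. Causes of these shifts were not tested. The 2 copies were compared within each library. Libraries of different groups could not be paired because only F121-9 carries replicate numbers in the labels. Depth limits Dlk1 and Rtl1, with 10 and 6 reads in 14 libraries.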
